A study of Homo sapiens with 36 samples.

Results

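EGR1, EGR2, EGR3 and EGR4 are zinc finger transcription factors, NAB1 and NAB2 are corepressors that bind EGR proteins, and NR4A1, NR4A2 and NR4A3 are nuclear receptors. These 9 genes were chosen by name, with results of these arrays known, and EGR1, EGR4 and NR4A2 stood in gene lists that the study had selected on the same arrays. Those lists were selected on the change that 8 h of OHT made under control siRNA, and on how NFYB siRNA differed from control siRNA at 8 h. Values and counts of these contrasts are therefore given as a description, with no p-value for a single probe set, and nothing is read from their calls. The array annotation gave 19 probe sets to 8 of the 9 genes, among 22215 tested probe sets that name 11963 genes. EGR2 expression was not analysed here. EGR1, EGR4 and NAB2 have 2 probe sets each, EGR3 has 1, and NAB1, NR4A1, NR4A2 and NR4A3 have 3 each.

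The cells were U2OS ER-HA-E2F1, a human osteosarcoma line that carries a retroviral transgene for E2F1 fused to an estrogen receptor domain and an HA tag. OHT (4-hydroxytamoxifen) moves the fusion protein into the nucleus. Cells of every group carried this transgene, were transfected with 1 of 4 siRNAs and were serum starved for 24 h from 18 h after transfection. The medium was then exchanged for serum-free medium with 80 nM OHT. The control arm held a Dharmacon and a Sigma negative control siRNA, and the NFYB arm an Ambion and a Dharmacon siRNA against NFYB, a subunit of the CCAAT-binding factor NF-Y. Cells were collected at 0, 4 and 8 h of OHT, where 0 h stands for no time in OHT, with 3 biological replicates for each of 12 conditions, so each arm had 6 arrays at each time and 36 arrays were used in all. No group had the medium exchange without OHT, so OHT, the exchange and the further hours of starvation cannot be told apart. The sources used here do not say whether the line is 1 clone.

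EGR and NR4A genes are immediate-early genes. Their promoters are held ready for transcription, and signals such as growth factors, stress or cyclic AMP raise their RNA within minutes, through factors that are already present. SRF with its partners acts at CArG boxes and CREB at sites that hold TGACGT. EGR proteins bind GC-rich sites, and EGR1 raises NAB2, which then represses EGR targets, so the pair forms a feedback loop. NR4A receptors act without a known natural ligand, bind the sequence AAAGGTCA, and in bone cells respond to parathyroid hormone.

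Promoter sequences of EGR1, EGR4, NR4A3 and both corepressors are shown because they hold matches to sites described here, and were chosen for that. The sequences are from RefSeq on GRCh38.p14, run 5′ to 3′ on the strand of the gene, and cover the 250 bases before the annotated start. Capitals mark matches on either strand to the motifs described below. EGR1 is at chr5:138465229-138465478 on the plus strand, and EGR4 at chr2:73293549-73293798 on the minus strand. NR4A3 is at chr9:99821635-99821884, NAB2 at chr12:57088864-57089113 and NAB1, at the first of its starts, at chr2:190648645-190648894, all on the plus strand.
EGR1: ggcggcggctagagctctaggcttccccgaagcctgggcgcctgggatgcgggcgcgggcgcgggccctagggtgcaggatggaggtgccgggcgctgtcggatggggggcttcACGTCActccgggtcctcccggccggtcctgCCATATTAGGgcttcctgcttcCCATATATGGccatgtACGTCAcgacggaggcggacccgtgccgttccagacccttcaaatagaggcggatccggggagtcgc
EGR4: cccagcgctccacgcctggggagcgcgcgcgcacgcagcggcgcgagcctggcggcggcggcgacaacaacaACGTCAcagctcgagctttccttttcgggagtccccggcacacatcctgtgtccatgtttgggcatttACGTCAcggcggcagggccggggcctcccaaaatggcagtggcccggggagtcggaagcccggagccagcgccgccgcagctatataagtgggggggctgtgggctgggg
NR4A3: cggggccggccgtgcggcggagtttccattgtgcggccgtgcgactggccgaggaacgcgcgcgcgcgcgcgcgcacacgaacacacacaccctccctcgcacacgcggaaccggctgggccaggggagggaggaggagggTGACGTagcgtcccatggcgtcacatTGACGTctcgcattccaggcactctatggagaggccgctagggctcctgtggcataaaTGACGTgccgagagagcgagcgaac
NAB2: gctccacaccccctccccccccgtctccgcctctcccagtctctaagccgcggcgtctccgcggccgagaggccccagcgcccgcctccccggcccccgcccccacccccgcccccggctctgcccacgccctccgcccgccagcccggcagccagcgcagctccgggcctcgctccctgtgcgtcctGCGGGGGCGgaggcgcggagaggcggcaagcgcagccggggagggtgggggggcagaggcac
NAB1: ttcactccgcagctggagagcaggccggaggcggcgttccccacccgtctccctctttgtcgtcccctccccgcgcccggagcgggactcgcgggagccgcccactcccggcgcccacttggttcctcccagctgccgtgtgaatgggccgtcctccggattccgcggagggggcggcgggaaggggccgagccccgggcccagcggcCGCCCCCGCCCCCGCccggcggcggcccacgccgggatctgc

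Windows of 300 bases, 250 before to 50 after a start, were searched on both strands for 6 motifs, in 35116 RefSeq promoters. The table held 12 windows for 7 of the genes, and EGR3 and NR4A2 had no entry. EGR1 held 2 CArG boxes, beginning 105 and 83 bases before the start, between matches to TGACGT at 136 and 67 bases. A CArG box was in 1.29% of all windows and in 2 of the 12, and TGACGT in 7.98% of all and in 5 of the 12. EGR4 held TGACGT at 178 and 110 bases, and NR4A3 held it 3 times, at 109, 83 and 25 bases. TGACGT was also in a window of EGR2, at 55 bases, and in that of the third start of NAB1, at 200 bases. The EGR site, GCGGGGGCG or GCGTGGGCG, was in 5.77% of all windows and in 3 of the 12. These belong to NAB2 and to the first and second starts of NAB1, whose windows overlap and hold the same matches. NAB2 held this site 62 bases before its start, and NAB1 held matches at 42 and 36 bases, which overlap, and at position 13 after the start, beyond the printed stretch. CCAAT, the letters NF-Y binds, was in 34.6% of all windows and, of the 12 windows of these genes, in 1, which belongs to a second start of NAB1 (129 bases before it). The E2F site (TTTCCCGC, TTTGGCGC, TTTCGCGC or TTTGCCGC) was in 3.31% and AAAGGTCA in 1.22% of all windows, and in 0 of the 12. Both windows of NR4A1 held none of the 6 motifs. A match or its lack describes only these letters in these windows.

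The knockdown itself was seen in every NFYB siRNA array. NFYB, measured by 218127_at, had a signal of 160.9 to 203.1 at 0 h, 389 to 491 at 4 h and 579 to 717 at 8 h in control siRNA cells. With NFYB siRNA it was 53.9 to 81.7, 57.0 to 159.4 and 74.1 to 187.4. The log2 difference was -1.50 at 0 h (adjusted p = 1.38e-06, limma) and -2.03 at 4 h (3.15e-09). At 8 h it was -2.44, given without a p-value because NFYB also stood in the lists that the study had selected. Of 9 mesenchymal markers of U2OS, 6 were in the upper 60% of probe sets by signal, near the share that any probe sets would have. COL1A2, RUNX2 and TWIST1 were not, at the 25.9, 21.9 and 7.84 percentile. In the upper 60% were also 1 of 5 epithelial (EPCAM, 67.4 percentile), 0 of 4 leukocyte and 0 of 4 endothelial markers. The 3′ to 5′ ratio of GAPDH was 0.935 to 1.21 over all arrays. Arrays of the same condition correlated at r = 0.951 to 0.962 in log2 signal across probe sets.

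In control siRNA cells, EGR1, EGR4, NR4A1, NR4A2 and NR4A3 rose by large factors within 4 h of OHT, EGR3 and NAB1 rose less, and NAB2 rose slightly. The fit by limma on log2 signal called 17 of the 19 probe sets higher at 4 h than at 0 h, in all 8 genes, and 0 lower, where 16.1% of all tested probe sets were called higher. The median log2 change was 2.76 over the 19 probe sets and -0.11 over all probe sets. A change was called at a p under 0.05 after Benjamini-Hochberg adjustment over all tested probe sets. The 0 h arrays are shared with the contrast at 8 h on which the list with EGR1 and EGR4 was taken as selected. At 8 h, 15 probe sets of 7 genes were called higher and 1, of NAB2, lower, beside 20.3% of all probe sets called higher and 29.6% lower, and the median log2 change was 2.47. EGR1 and EGR4 were taken as selected on this contrast, so nothing is read from that count.

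**Figure D1:**
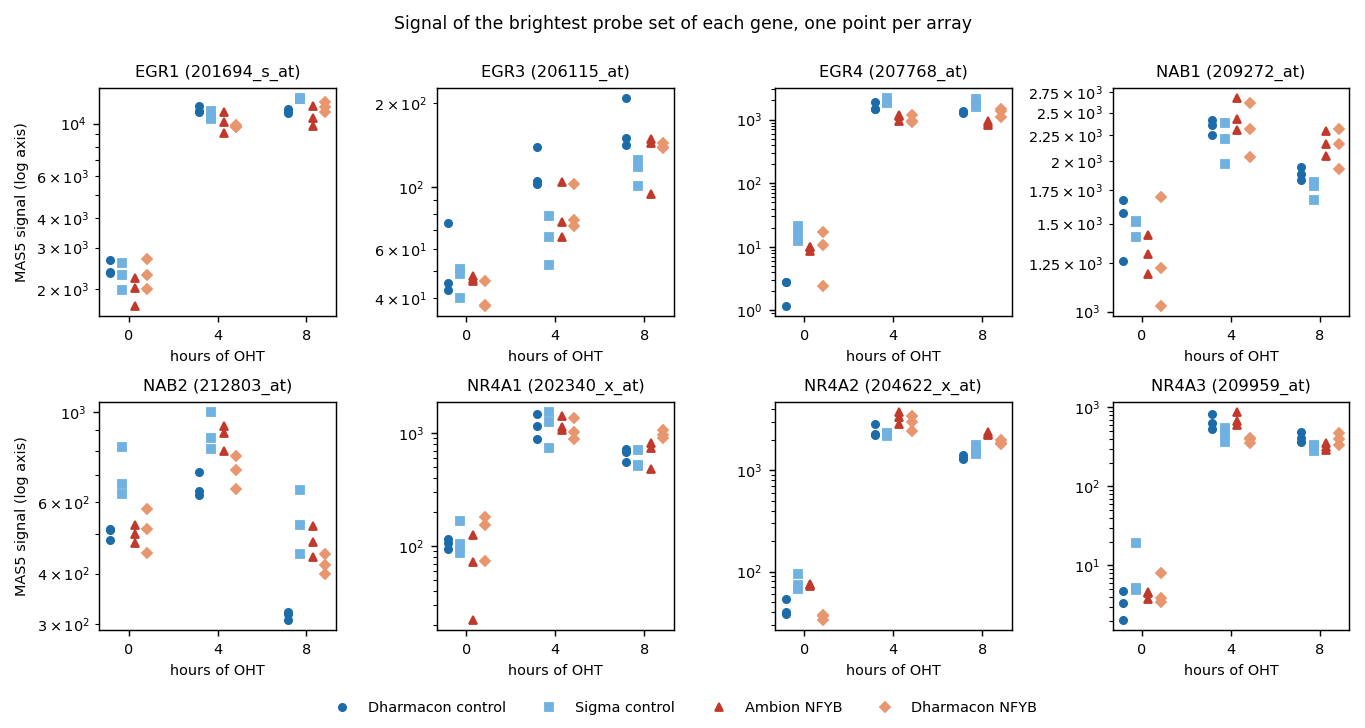
MAS5 signal on a log axis against hours of OHT for the brightest probe set of each of 8 genes, with 1 point per array and colours and shapes for the 4 siRNAs. For EGR1, EGR4, NR4A1, NR4A2 and NR4A3 every array at 4 h and 8 h lies above every array at 0 h.

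EGR1, the best known member of its family and a factor of growth and stress responses, was bright from the start. Its probe set 201694_s_at had in control siRNA cells a lowest, median and highest signal of 1983, 2353 and 2657 at 0 h, of 10448, 11239 and 11863 at 4 h and of 11093, 12084 and 12790.4 at 8 h. The 0 h arrays did not overlap the later ones, while the 4 h and 8 h arrays did overlap each other. The log2 change at 4 h was 2.24 ± 0.08 (SE, n = 6 per group, adjusted p = 7.64e-24, limma), a 4.72-fold rise, and at 8 h it was 2.34 ± 0.08. The other probe set, 201693_s_at, was dimmer at 0 h, at 375 to 688, and changed by 2.76 and 3.02 on the log2 scale.

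EGR4, a family member best known from neurons and the testis, went from a very dim to a bright signal. Its probe set 207768_at had a lowest, median and highest signal of 1.18, 7.64 and 21.4 at 0 h, of 1470.2, 1847 and 2170.5 at 4 h and of 1258, 1468 and 2110.4 at 8 h in control siRNA cells. Every array of 4 h and 8 h was far above every array of 0 h. The log2 change at 4 h was 8.24 ± 0.43 (SE, adjusted p = 1.61e-18, limma), and 6.20 after 16 was added to each signal, so its size depends on how the dim 0 h signals are treated. The probe set 207767_s_at had 19.6 to 49.995 at 0 h and 448 to 974 at 4 h, a change of 4.01 ± 0.28. The file holds no detection calls, so whether the 0 h signals stood above background is not known.

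EGR3, which calcium signalling through NFAT induces in T cells, rose by 4 h, stood higher at 8 h and stayed dim. Its 1 probe set, 206115_at, had a lowest, median and highest signal of 39.9, 46.9 and 74.4 at 0 h, of 52.5, 90.7 and 139.7 at 4 h and of 101.2, 134 and 208 at 8 h. At 4 h, 4 of 6 arrays were above all 0 h arrays, and at 8 h all 6 were. The log2 change was 0.81 ± 0.20 at 4 h (SE, adjusted p = 0.000961, limma) and 1.48 ± 0.20 at 8 h. The call at 4 h was lost with the Sigma control siRNA alone and with the methods' t-test on linear signal after adjustment.

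On the brightest probe sets, the corepressors changed less at 4 h than EGR1, EGR4 and the NR4A receptors, while over its probe sets NAB1 was near EGR3 (0.81). NAB1 rose at 4 h on all 3 probe sets, by 0.61 on 209272_at, 0.87 on 211139_s_at and 0.82 on 208047_s_at (log2, adjusted p = 1.66e-07, 6.44e-10 and 0.00951, limma). On 209272_at the lowest, median and highest signals were 1261, 1514 and 1668 at 0 h, 1975, 2307 and 2419 at 4 h and 1674, 1824 and 1945 at 8 h. The 3 times did not overlap for this probe set, and the 4 h arrays were the highest. The call for 208047_s_at at 4 h was lost without replicate 1, without replicate 3 and with the Sigma control siRNA alone.

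NAB2, the corepressor that EGR1 induces, rose slightly and then fell below its starting level. Its brighter probe set, 212803_at, had 485, 570.4 and 821 at 0 h, 625, 761 and 999 at 4 h and 308, 384 and 644 at 8 h as lowest, median and highest signal in control siRNA cells. The groups overlapped at each step, and the control siRNAs differed from each other, as described further on. The log2 change at 4 h was 0.36 ± 0.15 (SE, adjusted p = 0.0457, limma), a call that was lost when only the compared groups were fitted, with the Sigma control siRNA alone, and without replicate 1 or replicate 2. It was also lost without any 1 of the Dharmacon control arrays of 0 h or the Sigma control arrays of 4 h, or without Sigma control 0 h replicate 1. At 8 h it was -0.53 ± 0.15, where the median over all probe sets was -0.10. The dimmer 216017_s_at changed by 1.39 ± 0.60 at 4 h (adjusted p = 0.0636) and had an array at 5.57 among 0 h signals that reached 169.7.

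The NR4A receptors rose together at 4 h. NR4A2 (Nurr1), known for dopamine neurons and for early responses in bone cells, had on 204622_x_at a lowest, median and highest signal of 38.4, 60.5 and 94.4 at 0 h, of 2168, 2285 and 2863 at 4 h and of 1299, 1430.0 and 1784 at 8 h. The 3 times did not overlap, and the 4 h arrays were the highest. The log2 change at 4 h was 5.34 ± 0.19 (SE, adjusted p = 5.23e-24, limma), a 40.4-fold rise, and the other probe sets changed by 5.19 and 5.39. At 8 h the 3 probe sets stood 4.35 to 4.72 above 0 h.

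NR4A3 (NOR1), the gene fused in extraskeletal myxoid chondrosarcoma, was very dim at 0 h. On 209959_at the lowest, median and highest signals were 2.05, 4.87 and 19.1 at 0 h, 364, 545 and 820.5 at 4 h and 281, 349.9 and 489 at 8 h. All arrays of 4 h and 8 h were above all arrays of 0 h. The log2 change at 4 h was 6.77 ± 0.31 (SE, adjusted p = 1.73e-20, limma), or 4.68 with 16 added to each signal. The probe sets 207978_s_at and 216979_at changed by 7.12 and 3.55, the latter from 3.19 to 16.1 at 0 h to 57.6 to 112 at 4 h.

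NR4A1 (Nur77), known for T cell death and for metabolism in muscle and liver, had on 202340_x_at a lowest, median and highest signal of 87.7, 106 and 168 at 0 h, of 733, 1199.6 and 1536 at 4 h and of 512, 621 and 724 at 8 h. The 3 times did not overlap. The log2 change at 4 h was 3.36 ± 0.29 (SE, adjusted p = 2.31e-12, limma), a 10.2-fold rise. The probe sets of this gene differed: 211143_x_at changed by 2.17 ± 0.36, while 210226_at stayed at 10.3 to 96.3 at 0 h and 13.4 to 80.4 at 4 h and changed by 0.45 ± 0.55 (adjusted p = 0.573). That probe set ranks at the 30.8 percentile of mean log2 signal over the array.

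**Figure D2:**
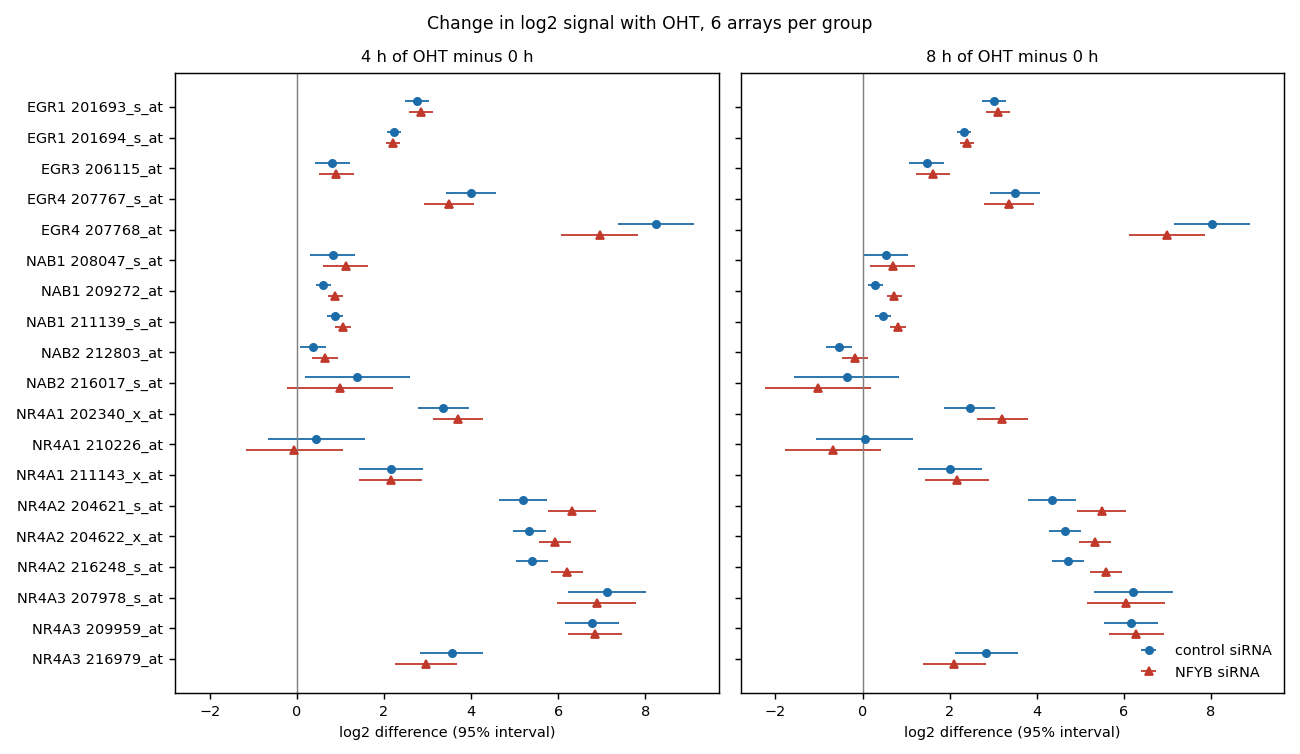
Log2 change of 19 probe sets at 4 h and at 8 h against 0 h of OHT, with control and NFYB siRNA in blue and red and 95% intervals from the fit. A probe set of EGR4 lies farthest to the right at both times, followed by those of NR4A2 and 2 of NR4A3, and NAB2 lies left of 0 at 8 h.

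The genes parted between 4 h and 8 h, a comparison that was added after the data had been seen. It shares the 8 h arrays with the contrast above, and with that of NFYB and control siRNA on which the list with NR4A2 was selected. In control siRNA cells 8 of the 19 probe sets were called lower at 8 h than at 4 h, 2 of NAB1, 2 of NAB2, 1 of NR4A1 and 3 of NR4A2, where 10.1% of all probe sets were called lower. EGR3 was the only probe set of the 19 called higher, by 0.67 ± 0.20 (log2, SE, adjusted p = 0.0143, limma). That call was lost when only the compared groups were fitted, with the methods' t-test on log2 or linear signal, with the Dharmacon control siRNA alone, without any 1 replicate number, and without Dharmacon control 8 h replicate 1 or Sigma control 4 h replicate 1. NR4A2 fell by 0.69 on 204622_x_at, given without a p-value because its list was selected on the same 8 h control arrays. Nothing is read from its calls in this comparison. NAB2 fell by 0.90 on 212803_at (adjusted p = 2.03e-05, limma). The calls on the 3 probe sets of NR4A2 were lost with the Sigma control siRNA alone and without replicate 1 or replicate 3. Those of NAB1, on 209272_at and 211139_s_at, were lost with either control siRNA alone. The call on NAB2 216017_s_at was lost with constant prior variance, with the methods' t-test on log2 signal and with the Dharmacon control siRNA alone. It was also lost without any 1 replicate number and without some single arrays. NR4A1 fell by 0.89 on 202340_x_at (0.0273), a call lost with either control siRNA alone, without replicate 1 or replicate 2, and without any 1 of 6 arrays: Dharmacon control 4 h replicate 1 and 8 h replicate 2, Sigma control 4 h replicates 1 and 2, and Sigma control 8 h replicates 2 and 3. EGR1 changed by 0.10 and 0.26 on its probe sets (adjusted p = 0.437 and 0.237) and EGR4 by -0.21 and -0.49 (0.817 and 0.267). NR4A3 had changes of -0.60 to -0.90 on 3 probe sets, of which 0 passed (adjusted p = 0.181 to 0.197), although on 207978_s_at and 216979_at every 8 h array lay below every 4 h array. With 16 added to each signal all 3 were called, with changes of -0.85 on 207978_s_at (adjusted p = 8.79e-05, limma), -0.58 on 209959_at (0.0231) and -0.55 on 216979_at (0.0173). With each control siRNA alone 3 of the 19 were called, beside 2315 of all probe sets with Dharmacon and 2482 with Sigma. Without a replicate number 3 to 5 were, beside 1959 to 2279 of all.

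All 8 genes had a probe set that rose with NFYB siRNA too. At 4 h, 17 of the 19 probe sets were called higher than at 0 h, beside 15% of all probe sets, and at 8 h 16 were, beside 18.5%. The 4 h change was 2.22 for EGR1 on 201694_s_at, 6.95 for EGR4 on 207768_at, 5.93 for NR4A2 on 204622_x_at, 6.85 for NR4A3 on 209959_at and 3.70 for NR4A1 on 202340_x_at (log2). EGR3 changed by 0.91 and NAB1, on 209272_at, by 0.88. NAB2 rose by 0.64 ± 0.15 on 212803_at (SE, adjusted p = 0.000539, limma), with all 6 arrays above all 0 h arrays. At 8 h this probe set stood at -0.17 ± 0.15 and was not called. From 4 h to 8 h, 5 probe sets were called lower, of NAB2 and NR4A2, beside 9.99% of all, and EGR3 higher by 0.71 (adjusted p = 0.00965, limma). The NR4A2 calls were lost with the Dharmacon NFYB siRNA alone and without replicate 1, and the EGR3 call with either NFYB siRNA alone. The call on NAB2 216017_s_at was lost with either NFYB siRNA alone, without replicate 1 or replicate 2, and with the methods' t-test on linear signal.

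At 0 h, 1 of the 19 probe sets was called between the arms: NAB1 211139_s_at had a log2 difference of -0.41 (adjusted p = 0.00731, limma), where 2% of all probe sets were called lower and 1.58% higher. Its lowest, median and highest signals were 503, 533 and 609 with control and 331, 387 and 572 with NFYB siRNA, and 5 of 6 arrays lay below all control arrays. The call was lost when only the compared groups were fitted, with either Dharmacon siRNA alone in its arm, and without replicate 2 or replicate 3. The other NAB1 probe sets differed by -0.20 and -0.62 (adjusted p = 0.226 and 0.203). EGR1 on 201693_s_at differed by -0.40 ± 0.14 (adjusted p = 0.112). Single siRNAs differed more from the pooled controls. The Dharmacon NFYB siRNA stood at -1.15 on EGR4 207767_s_at and at -0.71 to -0.97 on the probe sets of NR4A2, and the Ambion siRNA at -0.57 on NAB1 211139_s_at and -0.91 on NR4A1 202340_x_at (log2). With the Dharmacon NFYB siRNA alone 3 probe sets were called, beside 1452 of all, and with the Sigma control siRNA alone 4, beside 1332.

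After 4 h of OHT, EGR4 was dimmer and NR4A2 brighter in the NFYB siRNA arrays, by differences that the fit of all arrays did not call. EGR4 207768_at had a lowest, median and highest signal of 1470.2, 1847 and 2170.5 with control and of 901, 1056 and 1196 with NFYB siRNA. For 207767_s_at the values were 448, 572 and 974 with control and 268, 333 and 396 with NFYB siRNA. On both probe sets all 6 NFYB siRNA arrays lay below all 6 control arrays. The log2 differences were -0.75 ± 0.43 (SE, adjusted p = 0.452, limma) and -0.88 ± 0.28 (0.0866).

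NR4A2 ran the other way at 4 h. On 204621_s_at the lowest, median and highest signals were 1372, 1579.6 and 1753 with control and 1867, 2328 and 3126 with NFYB siRNA, with no overlap. On 204622_x_at they were 2168, 2285 and 2863 with control and 2456, 3205 and 3765 with NFYB siRNA, and 5 of 6 NFYB siRNA arrays lay above all control arrays. The log2 differences on 204621_s_at, 204622_x_at and 216248_s_at were 0.60 ± 0.27, 0.41 ± 0.19 and 0.44 ± 0.18 (SE, adjusted p = 0.293, 0.287 and 0.229, limma).

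Over the 19 probe sets limma called 0 at 4 h, beside 1.48% of all probe sets higher and 1.45% lower. At an unadjusted p under 0.05 the methods' t-test on log2 signal passed 3 higher and 5 lower, beside 2731 of all 22215 probe sets. The spread that the limma fit uses comes from all 36 arrays, and for EGR4 it includes 0 h arrays between 1.18 and 21.4. When only the 12 arrays of 4 h were fitted, 5 were called, beside 383 of all 22215 probe sets, both probe sets of EGR4 lower (adjusted p = 0.00111 and 0.0112) and the 3 of NR4A2 higher (0.0112 to 0.0448). With 12 groups, EGR4 207767_s_at and 2 probe sets of NR4A2 were called, beside 2284 of all. With siRNA as a random block none of the 5 was called (adjusted p = 0.229 to 0.657). With 16 added to each signal, the EGR4 pair was called, beside 690 of all. The methods' t-test on log2 signal with Benjamini-Hochberg adjustment called EGR4 207768_at, beside 171 of all. Over all settings that keep both siRNAs of each arm the adjusted p of EGR4 207768_at ran from 0.00111 to 0.777 and that of NR4A2 204622_x_at from 0.00187 to 0.659.

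At 8 h, on the arrays from which the list with NR4A2 was selected, NR4A2 was again brighter in the NFYB siRNA arrays. All 6 NFYB siRNA arrays were above all control arrays on the 3 probe sets of NR4A2. On 204622_x_at the lowest, median and highest signals were 1299, 1430.0 and 1784 with control and 1819, 2094 and 2409 with NFYB siRNA. The log2 differences were 0.50 to 0.62. EGR4 207768_at had 1258, 1468 and 2110.4 with control and 837, 1023 and 1473 with NFYB siRNA, which overlap, and differed by -0.50 ± 0.43. EGR1 differed by -0.09 and -0.31, EGR3 by -0.04, and NR4A3 by -0.03 to -0.07. Limma called 0 of the 19 probe sets, beside 2.18% of all probe sets called higher and 2.46% lower. The list with NR4A2 was selected on these arrays, and that with EGR1 and EGR4 may have been, so nothing is read from these counts. The 3′ to 5′ ratio of ACTB was 2.55 to 3.32 in the control and 3.12 to 4.06 in the NFYB siRNA arrays at 8 h, and its part in these differences was not tested.

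**Figure D3:**
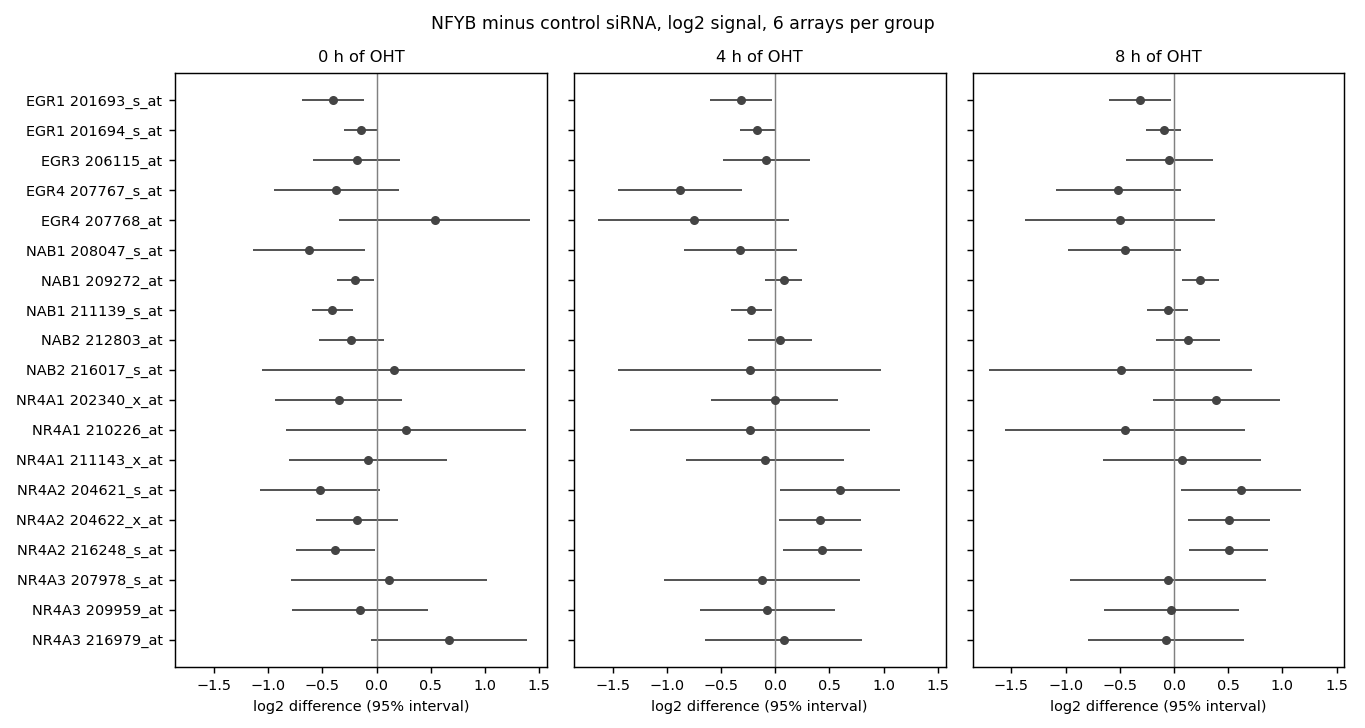
Log2 difference between NFYB and control siRNA at 0, 4 and 8 h of OHT for 19 probe sets, with 95% intervals from the fit of all arrays. NR4A2 lies left of 0 at 0 h and right of 0 at 4 h and 8 h, and EGR4 lies left of 0 at 4 h and 8 h.

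Whether the response itself differed between the arms was tested as an interaction. At 4 h limma called 0 of the 19 probe sets, where 0.0135% of all probe sets were called, and at 8 h it called 0, where 0.203% were. NR4A2 responded at 4 h by 0.59 to 1.12 more on the log2 scale with NFYB siRNA (adjusted p = 0.543 to 0.961). EGR4 differed in its response by -1.29 on 207768_at, with a 95% interval from -2.53 to -0.05, and by -0.51 on 207767_s_at (adjusted p = 0.999 for both). By siRNA, the 4 h change of NR4A2 204622_x_at was 5.801 with the Dharmacon and 4.87 with the Sigma control, and 5.49 with the Ambion and 6.37 with the Dharmacon siRNA against NFYB. On 216248_s_at these changes were 5.96, 4.82, 5.97 and 6.44. On 204621_s_at they were 5.61, 4.77, 5.98 and 6.64, so both NFYB siRNAs lay above both controls there. On 204622_x_at and 216248_s_at the Ambion siRNA gave a change below or near that of the Dharmacon control. The Dharmacon NFYB siRNA, with the lower 0 h signals, gave the highest change on each NR4A2 probe set. With 12 groups, 1 for each siRNA and time, 204622_x_at and 216248_s_at were called at 4 h, beside 87 of all probe sets. The EGR4 difference on 207768_at was 0.04 at 4 h when the Sigma siRNA alone was the control.

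**Figure D4:**
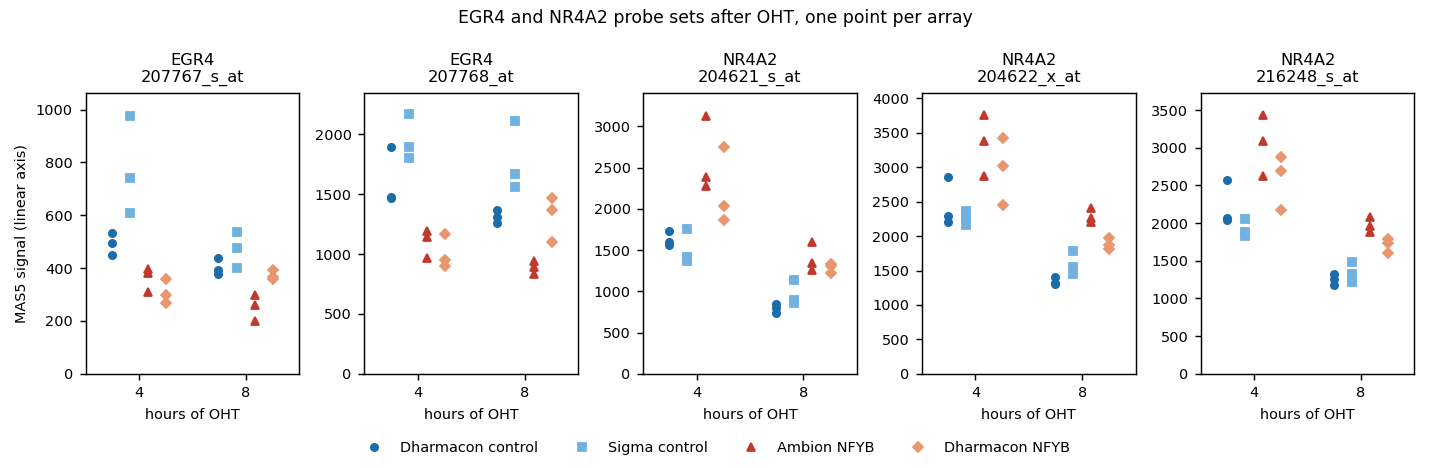
MAS5 signal on a linear axis from 0 for the 2 probe sets of EGR4 and the 3 of NR4A2 at 4 h and 8 h of OHT, with 1 point per array and colours and shapes for the 4 siRNAs. At 4 h the NFYB siRNA arrays lie below the control arrays for EGR4, and at 8 h they lie above them for NR4A2.

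The siRNAs of an arm were also compared with each other. Averaged over the 3 times, 5 of the 19 probe sets differed between the Sigma and the Dharmacon control siRNA, beside 25.6% of all probe sets, so the share was near that of the array. EGR4 207768_at was higher with Sigma by 1.22 on the log2 scale (adjusted p = 4.13e-05, limma), or 0.51 with 16 added to each signal, with 12.4, 15.9 and 21.4 against 1.18, 2.81 and 2.84 at 0 h. NAB2 212803_at was higher by 0.56 (4.2e-08), and its 8 h signals were 447, 528 and 644 with Sigma and 308, 318 and 321 with Dharmacon. EGR3 differed by -0.51 (0.00409) and NR4A2 204622_x_at by 0.32 (0.000928).

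Between the NFYB siRNAs, 2 of the 19 probe sets differed, beside 17.1% of all. NR4A2 204622_x_at differed by -0.50 between the Dharmacon and the Ambion siRNA (log2, adjusted p = 4.26e-06, limma) and 216248_s_at by -0.39 (0.00258). At 0 h the 204622_x_at signals were 72.3, 73.9 and 76.1 with the Ambion and 33.5, 36.5 and 37.1 with the Dharmacon siRNA. The difference from the pooled controls on this probe set was 0.35 with Ambion and -0.71 with Dharmacon at 0 h, 0.50 and 0.32 at 4 h, and 0.65 and 0.37 at 8 h. For EGR4 207768_at it was -0.69 and -0.82 at 4 h and -0.78 and -0.22 at 8 h. At 8 h the Ambion arrays of EGR4 had 837, 889.7 and 946, and the Dharmacon arrays 1099, 1373 and 1473, which overlap the controls.

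The order of the 6 groups by mean level differed between the genes. EGR1 and EGR3 were highest in the 8 h control arrays, EGR4, NR4A1 and NR4A3 in the 4 h control arrays, and NAB1, NAB2 and NR4A2 in the 4 h NFYB siRNA arrays. Taken on the brightest probe set, neighbours in this order mostly overlapped. For EGR1, EGR4 and NR4A3, a gap without overlap was seen only between the arrays of 4 h or 8 h and those of 0 h, and for NAB1 and NR4A1 only between 8 h control and 0 h control. NR4A2 had gaps both there and between 8 h with NFYB siRNA and 8 h control. EGR3 and NAB2 had none.

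Other genes of the same class moved in both directions. Of 37 further immediate-early genes, 23 were called higher and 9 lower at 4 h in control siRNA cells, and 22 higher and 10 lower at 8 h, with a median log2 change of 0.90 and 0.76 where all probe sets had -0.11 and -0.10. At 8 h the changes of greatest size were those of DUSP2 (3.12), a phosphatase of MAP kinases, FOSB (2.66), a partner of JUN, KLF10 (2.57), a zinc finger factor induced by TGF-beta, and ATF3 (2.57), a stress factor. From 4 h to 8 h, 16 of the 37 were called lower and 2 higher, beside 10.1% and 7.13% of all probe sets. NFYB against control siRNA gave 0 limma calls among the 37 at 4 h and at 8 h, and 3 lower at 0 h. Of all probe sets, 1.48% were called higher and 1.45% lower at 4 h, 2.18% and 2.46% at 8 h, and 1.58% and 2% at 0 h.

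Among 24 genes of the ERK, SRF, CREB and MEF2 pathways that act upstream of immediate-early promoters, 8 were called higher and 5 lower at 4 h, and 10 and 12 at 8 h. The 8 h changes of greatest size were in MEF2C (-1.66), a MADS box factor of muscle and neurons, MRTFB (-1.30) and MRTFA (-1.13), coactivators of SRF, and RPS6KA1 (1.16), a kinase downstream of ERK. Of 16 reported targets of EGR1, 5 were called higher and 3 lower at 4 h and 5 and 6 at 8 h. PLAU, the urokinase gene, changed by -1.72, HPSE (heparanase) by 1.52, VEGFA by 1.16 and PDGFA by 1.12. Of 13 partners and reported targets of NR4A receptors, 4 were called higher and 1 lower at both times. BCL2, the apoptosis inhibitor to which NR4A1 can bind, changed by 2.90, RXRA, the partner of NR4A1 and NR4A2, by 2.10, CDKN1B (p27) by 1.75 and ENO3 by 1.64 at 8 h. These counts stand beside 16.1% of all probe sets called higher and 23.3% lower at 4 h, and 20.3% and 29.6% at 8 h, and the lists were chosen with earlier results of these data known. CDKN1B stood in the list of the study that held EGR1 and EGR4. So did PTGS2 of the immediate-early genes, MAP2K1 of the ERK pathway, and WT1 and PRDM2, which are named below.

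Probe sets whose pattern over the 12 condition means was most like that of a member were found by Pearson's r in log2 signal, as a description. The 12 points share the arrays and the scaling of the series, and the step between 0 h and OHT sets most of each r. For EGR1 they were WT1 (r = 0.9965), PRDM2 (0.9964) and HIPK3 (0.9964), for EGR3 IGSF3 (0.977), BBX (0.9758) and ADCY1 (0.9746), and for EGR4 HEY1 with 2 probe sets (0.9955 and 0.9942) and DEDD (0.9929). NR4A2 was most like FOXO1 (0.9975), ARID1A (0.997) and TAF4 (0.9929). NR4A1 was most like HNRNPDL (0.994), URB2 (0.9896) and WNK1 (0.9857), and NR4A3 most like SEC61A2 (0.9962), HEY1 (0.9941) and BMP2 (0.9935). NAB1 had SNAI1 (0.9828), PANX1 (0.9685) and BHLHE41 (0.9628). NAB2 had the least close neighbours, E4F1 (0.8967), HNRNPD (0.8639) and ALG12 (0.8561).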

How the data were processed

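Total RNA was hybridised to Affymetrix human expression arrays, 1 per sample. The deposited intensity values are MAS5 signals on a linear scale that the authors made with Affymetrix Expression Console, version not given, with a target of 500 for the mean of each array, trimmed by 2% at both ends. Detection calls were not used here, so background is not known, and the number of arrays limits the precision. After 62 control probe sets were removed, 22215 of 22277 remained, and 19064 of them name a single gene, 1043 several and 2108 none. The genes and gene lists described were chosen with earlier results of these data known.

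Log2 signals (no offset) entered a linear model in limma (version 3.58.1, R 4.3.3) with a mean for each arm and time, 6 arrays each, and moderated variances that follow a trend on signal. Tests were two-sided, with Benjamini-Hochberg adjustment over all tested probe sets. The siRNAs of an arm were compared in a model of 12 groups of 3. Further genes were named by rule: in each list at most 4 called ones of greatest absolute change at 8 h under control siRNA, for each member the 3 most similar probe sets of the upper 60% by signal, and NFYB. Alternatives were an offset of 16, quantile normalization, centring on array medians, keeping the brighter 60%, constant prior variance, a fit of the compared groups alone, 12 groups, siRNA as a random block (correlation 0.16), replicate number as a block, the methods' t-test (unequal variance) on log2 or linear signal, single siRNAs, and omission of single arrays or replicate numbers. The comparison of 8 h with 4 h was added after the data had been seen. The model was tested on simulated data.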

Additional observations from a re-analysis of the deposited data

Results flagged for a closer look

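In 11 of 114 groups of 6 arrays (a probe set in an arm at a time) an array stood apart from the other 5 by Dixon's test, which by chance flags about 1 group in 20. At 0 h these were EGR4 207768_at in Dharmacon NFYB replicate 3 (2.46, others 8.46 to 17.2), NAB2 216017_s_at in Dharmacon control replicate 3 (5.57, others 56.1 to 169.7), NR4A2 204621_s_at in Dharmacon NFYB replicate 2 (7.30, others 28.1 to 59.8), NR4A3 207978_s_at in Sigma control replicate 2 (25.2, others 1.26 to 3.46) and NR4A3 209959_at in Dharmacon NFYB replicate 3 (8.09, others 3.48 to 4.63). At 4 h NR4A2 was high in Dharmacon control replicate 1 on 204622_x_at (2863, others 2168 to 2360.2) and on 216248_s_at (2571, others 1831 to 2061), and NAB2 216017_s_at was low in Dharmacon NFYB replicate 2 (43.0, others 129 to 234). At 8 h EGR3 was low in Ambion NFYB replicate 1 (94.2, others 138 to 149), NR4A1 211143_x_at was low in Dharmacon NFYB replicate 3 (58.6, others 146 to 229), and NR4A2 204621_s_at was high in Ambion NFYB replicate 1 (1597, others 1225 to 1340.3).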

How the results depend on the processing

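All 89 of 247 single values that were called kept their sign under every alternative, and 64 kept the call. Of 66 called changes with OHT against 0 h, 58 stayed called, and losses were in EGR3 at 4 h, NAB1 and NAB2. These totals include calls of the 8 h change with control siRNA, from which nothing is read. They and the counts of the 8 h contrasts below are given as a description. The counts below are of the 19 probe sets. For NFYB against control siRNA at 0 h, 1 was called (796). The count was 0 with only the compared groups (477) and with the methods' t-test on log2 (178) or linear signal (196) after adjustment. It was 2 with 12 groups (2503), 3 with the Dharmacon NFYB siRNA alone (1452) and 4 with the Sigma control siRNA alone (1332). At 4 h, 0 were called (651). The count was 2 with the offset (690), 5 with only the compared groups (383) and 3 with 12 groups (2284). It was 1 with the log2 t-test after adjustment (171) and 8 before it (2731). With the Dharmacon NFYB (1292) or the Sigma control siRNA alone (911) it was 1. At 8 h, 0 were called (1032). The count was 3 with the offset (1056), 1 with median centring (1206), 5 with only the compared groups (869) and 2 with 12 groups (2953). It was 3 with the t-test on log2 (467) or linear signal (455) after adjustment and 7 with the log2 t-test before it (3463). With the Dharmacon control siRNA alone it was 1 (1812). The difference of responses gave 0 at 4 h (3) and at 8 h (45). With 12 groups it gave 2 at 4 h (87) and at 8 h (290). With the Dharmacon control siRNA alone it gave 1 at 4 h (32) and at 8 h (65), and with Sigma alone 1 at 4 h (8) and at 8 h (30). With the Dharmacon NFYB siRNA alone it gave 1 at 8 h (235). For 8 h against 4 h with control siRNA, 9 were called (3824). The count was 14 with the log2 t-test before adjustment (5856), and 3 with Dharmacon (2315) or Sigma alone (2482). With NFYB siRNA 6 were called (3660), and the count was 12 with that t-test (5763), 3 with Ambion alone (2194) and 1 with Dharmacon alone (1998).

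Leaving out an array or a replicate number gave 15 to 18 calls for 4 h and 15 to 17 for 8 h against 0 h with control siRNA, and 17 to 17 and 15 to 17 with NFYB siRNA. It gave 3 to 10 and 2 to 7 for 8 h against 4 h in these arms, the low counts without a replicate number (12 arrays), and 5 without Sigma control 4 h replicate 1. NFYB against control siRNA gave 0 to 2 at 0 h. It gave 2 without Dharmacon control replicate 3 (719 of all), Dharmacon NFYB replicate 1 (724) or replicate 3 (598), and 0 without replicate 2 (249). At 4 h it gave 0 to 1, with 1 without Ambion NFYB 0 h replicate 1 (652) or Dharmacon NFYB 0 h replicate 2 (637). At 8 h it gave 0 to 1, with 1 without the latter (1040). The difference of responses gave 0 to 0 at 4 h and 0 to 1 at 8 h (1 without Dharmacon control 0 h replicate 2 or Dharmacon NFYB 0 h replicate 1). Sigma against Dharmacon control gave 3 to 6 (3 without replicate 2), and Dharmacon against Ambion NFYB siRNA 2 to 5 (4 without Ambion 0 h replicate 3, 5 without Dharmacon 0 h replicate 3).

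A further 109 single values were called under no setting, and 74 of them changed sign in some alternative. Among values called in at least 1 setting, those that turned their sign were not called in the fit of all arrays. At 0 h, NFYB against control, EGR4 207767_s_at became 0.41 and NR4A2 204622_x_at 0.35 with Ambion alone. With the Dharmacon control alone NR4A2 204622_x_at became 0.23, 216248_s_at 0.0860 and NAB2 212803_at 0.0062, with Sigma alone EGR4 207768_at -0.93, and NR4A3 216979_at ran from -0.13 without replicate 3 to 1.46 without replicate 2. With Sigma alone NAB2 212803_at became -0.25 at 8 h, and the EGR4 207768_at difference of responses 0.0374 at 4 h and 0.22 at 8 h. NAB2 216017_s_at at 8 h against 0 h became 1.07 with the Dharmacon control alone and, over single omissions, ran from -1.05 (without Dharmacon control 0 h replicate 3) to 0.17 (without Sigma control 8 h replicate 3), and NR4A3 209959_at at 8 h against 4 h 0.0366 with the Dharmacon NFYB siRNA alone. The cause was not tested. Median centring moved the median of all probe sets at 8 h from -0.15 to -0.05 with NFYB siRNA. Arrays with the same replicate number correlated in their deviations by -0.187 to 0.288 (median 0.00893), and 16 of 36 were closest to their own number, so the numbers were not taken as pairs. With the replicate block the count at 4 h against 0 h with control siRNA was 16 in place of 17, because NAB2 212803_at went from an adjusted p of 0.0457 to 0.0517 (limma), and no other call changed.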
